A study of Homo sapiens with 9 samples.

Results

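10 long noncoding RNAs (lncRNAs) that are widely studied in cancer were followed across RNA-seq counts of OVCAR3 cells, an established human epithelial ovarian cancer line. They were chosen by name, with earlier results of these data known. The 10 are NEAT1, MALAT1, GAS5, SNHG1, SNHG5, PVT1, UCA1, DANCR, CRNDE and LINC-PINT. All 10 were found in the count matrix, among 60660 genes of which 16763 are annotated as lncRNA genes, and all 10 passed the filter on low counts that left 17794 genes, 2145 of them lncRNA genes. The cells fell into 3 groups of 3 biological replicates. Control cells had received 2 µg of a LacZ plasmid and were harvested after 48 h. CTCFL-OE cells had received 2 µg of a plasmid carrying the CTCFL (BORIS) open reading frame and were harvested after the same 48 h. The RNA of the CTCFL-KD cells, in which CTCFL was knocked down, came from earlier experiments, and no control of their own was among the libraries, so knockdown and separate experiment cannot be told apart. In the transfections, each replicate pooled 3 technical replicates, and pooling is not described separately for the CTCFL-KD RNA.

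LncRNAs are transcribed and often spliced like messenger RNAs but encode no known protein, and they act as RNA, through their transcription, or as carriers of small RNAs in their introns. NEAT1 is the scaffold of paraspeckles, nuclear bodies assembled on its long isoform, and MALAT1 is an abundant RNA of nuclear speckles, where splicing factors are stored. GAS5, SNHG1, SNHG5 and DANCR host small nucleolar RNAs (snoRNAs) in their introns, and the spliced transcripts of several such hosts are known substrates of nonsense-mediated decay. PVT1 lies beside MYC, UCA1 was first described in urothelial carcinoma, CRNDE lies beside the homeobox gene IRX5, and LINC-PINT is known as a p53-responsive RNA.

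The sequences of the lncRNAs that changed are shown first. UCA1 and NEAT1 showed the 2 largest changes in CTCFL-KD, and the first 200 bases of their canonical transcripts in GENCODE 44 are printed 5′ to 3′. For CRNDE, the third lncRNA that changed, the 300 bases around the RefSeq start are printed (250 before and 50 after it, GRCh38.p14, chr16:54928837-54929136, minus strand). Capitals mark 3 short GC-rich strings taken from the study's list of predicted CTCFL sites and searched on both strands. The string AGGGGGC was found in 14.4% of all RefSeq promoter windows of this length, the string AGGTGGC in 6.76% and the string AGAGGGC in 8.50%.
UCA1: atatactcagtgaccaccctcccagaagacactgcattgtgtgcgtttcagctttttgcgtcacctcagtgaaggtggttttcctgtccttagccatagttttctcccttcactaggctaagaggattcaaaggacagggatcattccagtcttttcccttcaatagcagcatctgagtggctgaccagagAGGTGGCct
NEAT1: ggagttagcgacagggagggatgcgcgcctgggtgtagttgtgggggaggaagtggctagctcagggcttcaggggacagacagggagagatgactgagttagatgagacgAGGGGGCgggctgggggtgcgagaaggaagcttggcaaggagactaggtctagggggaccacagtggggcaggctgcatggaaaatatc
CRNDE: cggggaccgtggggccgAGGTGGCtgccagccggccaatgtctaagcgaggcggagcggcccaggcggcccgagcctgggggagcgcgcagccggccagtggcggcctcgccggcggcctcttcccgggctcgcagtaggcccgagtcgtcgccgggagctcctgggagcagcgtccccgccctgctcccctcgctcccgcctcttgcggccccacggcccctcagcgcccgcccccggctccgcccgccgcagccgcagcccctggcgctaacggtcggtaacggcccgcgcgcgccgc
UCA1 held AGGTGGC from base 192, NEAT1 held AGGGGGC from base 112, and CRNDE held AGGTGGC 233 bases before its start. Such letters are common. Any of the 3 strings occurred in the first 200 bases of 12.6% of 54967 canonical transcripts, and in 26.5% of the 35116 RefSeq promoter windows. RefSeq promoter windows were matched for 7 of the 10 lncRNAs, all but NEAT1, PVT1 and UCA1. LINC-PINT had 4 such windows, MALAT1 2 and the others 1 each. The strings were also found in the windows of SNHG1 and SNHG5, in 1 of 2 of MALAT1 and in 3 of 4 of LINC-PINT, 2 of which overlap and share the match, and in none of GAS5 and DANCR.

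For the snoRNA hosts, the letters around the start are shown because many genes of this kind begin with a run of pyrimidines after a C. The 45 bases from 15 before to 30 after the RefSeq start are printed. Capitals mark a run of at least 5 pyrimidines that opens with a C within 5 bases of the start.
GAS5: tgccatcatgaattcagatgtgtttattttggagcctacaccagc
SNHG1: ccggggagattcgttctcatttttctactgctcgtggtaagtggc
SNHG5: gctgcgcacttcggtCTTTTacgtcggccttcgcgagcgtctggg
DANCR: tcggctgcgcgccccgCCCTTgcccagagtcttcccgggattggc
These lie at chr1:173869016-173869060 (minus strand), chr11:62855856-62855900 (minus), chr6:85678704-85678748 (minus) and chr4:52712379-52712423 (plus). SNHG5 and DANCR held such a run, and GAS5 and SNHG1 did not by this rule. A run of this kind was found in 21.1% of all windows. The RefSeq start of GAS5 lies upstream of the 5′ end of the gene in GENCODE 44, so its window shows RefSeq's start only.

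The libraries held 14332622 to 24490080 counts. CTCFL, the targeted gene, had 6 to 10 counts per Control library, 34 to 72 with CTCFL-OE and 0 to 1 with CTCFL-KD. Mitochondrial transcripts took 6.16 to 6.52% of the Control counts, 7.40, 12.4 and 14.9% in CTCFL-OE replicates 1, 2 and 3, and 11.8, 9.64 and 7.80% in the CTCFL-KD replicates. CTCFL-KD replicate 1 stood apart: 4.61% of its counts fell on lncRNA genes against 1.68 to 2.57% in the other 8 libraries, and its deviations from the mean over genes ran against transcript length (Spearman -0.41 over 11599 genes), against -0.01 to 0.22 elsewhere. The main results are therefore also given without it. The 8 epithelial and ovarian carcinoma markers were detected in every library, with a summed level, in counts scaled to library size (CPM), of 5244 to 5339 for Control, 4599 to 4982 with CTCFL-OE and 8979 to 15550 with CTCFL-KD. The 10 fibroblast markers summed to 28.6 to 34.3, 25.7 to 45.1 and 37.6 to 43.1 CPM in the same order. The 6 leukocyte and endothelial markers summed to 7.06 to 7.14, 8.73 to 10.4 and 4.93 to 5.59 CPM, and COL1A2, COL3A1, DCN, CD3E and CD68 were at 0 in every Control library.

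The Control libraries show which of the 10 lncRNAs OVCAR3 cells expressed. Levels are given in CPM, scaled by the trimmed mean of M values (TMM), and levels of different genes are compared only per kilobase of exon. In Control, MALAT1 led with 41.5 ± 7.96 CPM per kb (SD, n = 3) of all annotated exon bases, followed by GAS5 with 27.0 ± 2.82, SNHG1 with 26.2 ± 3.34 and NEAT1 with 21.0 ± 4.99. GAS5 and SNHG1 did not differ beyond their spread, and neither did SNHG1 and NEAT1. UCA1 (8.26 ± 0.048), DANCR (5.43 ± 0.088) and SNHG5 (5.28 ± 0.26) formed a middle range, in which DANCR and SNHG5 were within their spread of each other. PVT1 (0.485 ± 0.041), CRNDE (0.360 ± 0.013) and LINC-PINT (0.026 ± 0.0048) were lowest. The order depends on the length used, since GAS5, with 91 annotated transcripts, has 4932 exon bases in all but a canonical transcript of 768. Per kb of canonical transcript, GAS5 led with 173 ± 18.1 CPM per kb, ahead of SNHG1 with 89.5 ± 11.4, SNHG5 with 50.6 ± 2.52 and MALAT1 with 41.5 ± 7.96, and LINC-PINT was again lowest.

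**Figure D1:**
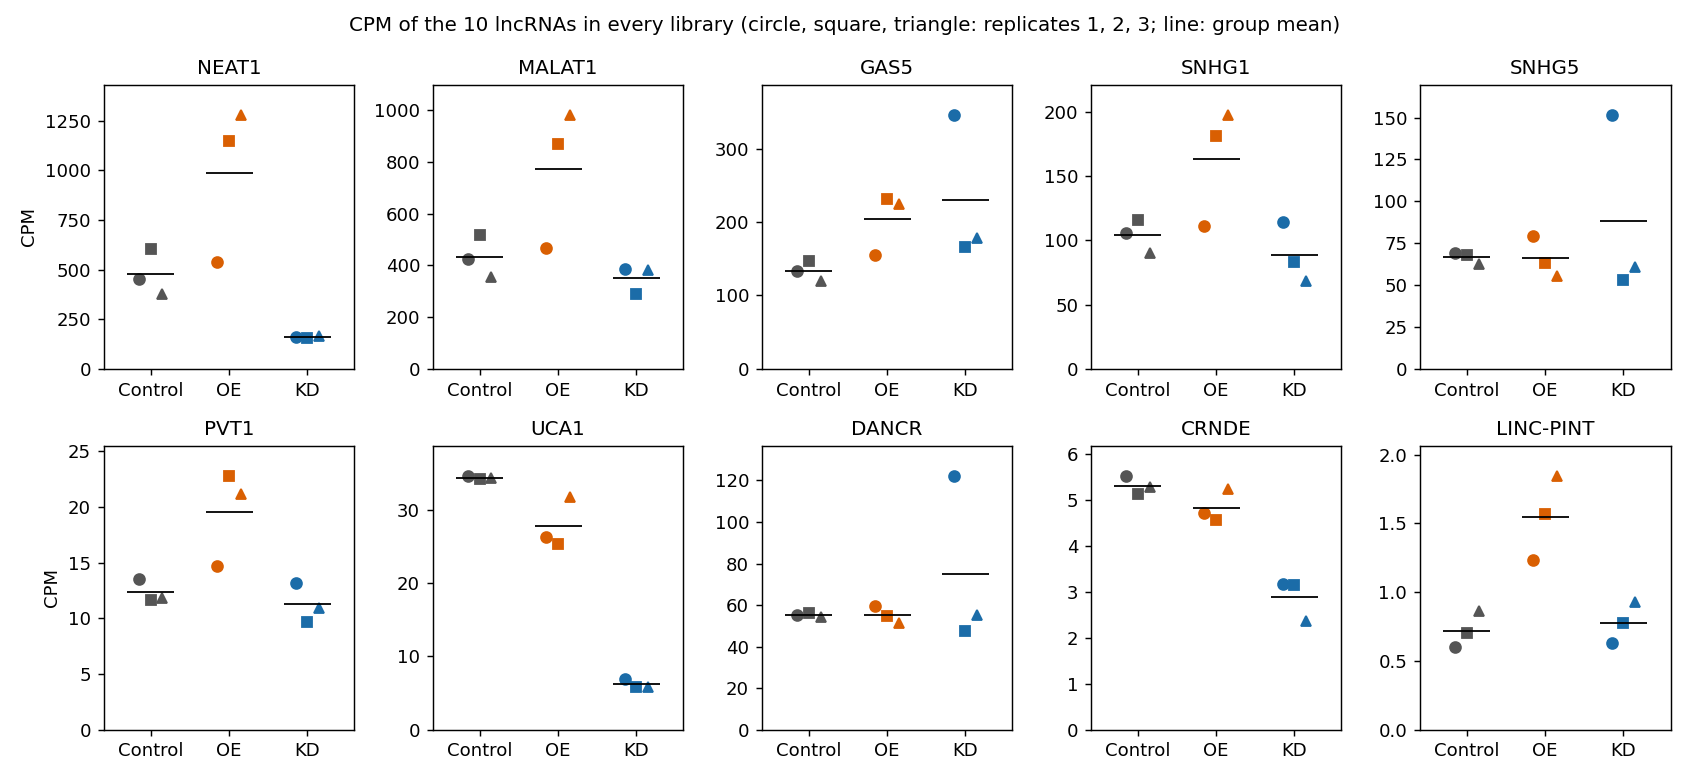
CPM of each of the 10 lncRNAs (y axis, from 0) in the 3 libraries of Control, CTCFL-OE (OE) and CTCFL-KD (KD), with replicates 1, 2 and 3 as circle, square and triangle and the group mean as a line. UCA1, NEAT1 and CRNDE lay lower in all 3 CTCFL-KD libraries, GAS5, SNHG5 and DANCR were high in CTCFL-KD replicate 1, and NEAT1, MALAT1 and SNHG1 were high in CTCFL-OE replicates 2 and 3.

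CTCFL-KD was compared with Control to ask which of the lncRNAs moved when CTCFL was lowered. UCA1, NEAT1 and CRNDE fell, to 0.180, 0.333 and 0.543 times the Control level, and none of the other 7 passed the test. Thus 3 of 10 were called lower and 0 higher at an adjusted p under 0.05 (edgeR's quasi-likelihood test, Benjamini-Hochberg adjustment over all genes), where 38.2% of all genes tested were called, 16.8% lower and 21.4% higher. Of the 10, 30% were thus called, and no test was made of this share. Without CTCFL-KD replicate 1, 3 of the 10 were again lower and 0 higher, beside 4330 lower and 4640 higher of 17794 genes. UCA1 and NEAT1 were also DEGs, with a log2 fold change beyond 1, which held for 23.2% of all genes tested (7.94% lower, 15.3% higher). For 4 of the 10 the libraries did not overlap, 3 below Control and GAS5 above it, as for 56.3% of all genes tested (27.6% below, 28.7% above). The median log2 fold change of the 10 was -0.18, against 0.08 over all genes tested and 0.21 over the lncRNA genes tested. In bulk RNA, fewer cells of a type and less RNA per cell cannot be told apart, and the part of the higher summed epithelial markers of CTCFL-KD in these values was not tested.

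UCA1 (ENSG00000214049.8, chr19:15828206-15836328, plus strand, up to 5 exons per transcript) is linked to proliferation and drug resistance of carcinoma cells. The Control libraries stood at 34.6, 34.2 and 34.2 CPM, those of CTCFL-OE at 26.3, 25.3 and 31.7, and those of CTCFL-KD at 6.94, 5.77 and 5.86, from 676 to 880, 485 to 577 and 77 to 107 counts. The 3 groups did not overlap, and the Control libraries differed by less than 1 CPM. In CTCFL-KD it fell by 2.48 ± 0.17 on the log2 scale (SE, n = 3; edgeR's quasi-likelihood test, adjusted p = 4.98e-06). In CTCFL-OE its log2 fold change was -0.31 ± 0.16 (edgeR, adjusted p = 0.342), which did not pass. UCA1 overlaps LINC01764 on the opposite strand, and the strand setting of the counting is not given in the sources used here, so reads of the pair may be mixed.

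NEAT1 (ENSG00000245532.9, chr11:65422774-65445540, plus strand) is annotated as a single-exon RNA of 22743 bases in its canonical form, with a shorter polyadenylated form that shares its 5′ end. A gene-level count does not separate the forms. The Control libraries held 455, 602 and 378 CPM of it, those of CTCFL-OE 536, 1146 and 1276, and those of CTCFL-KD 158, 155 and 164. All CTCFL-KD libraries lay below every other library, whereas CTCFL-OE replicate 1 lay inside the Control range. NEAT1 fell in CTCFL-KD by 1.59 ± 0.31 on the log2 scale (edgeR, adjusted p = 0.00274). With CTCFL-OE, the log2 fold change was 1.04 ± 0.31 (edgeR, adjusted p = 0.128), which did not pass the threshold of 0.1.

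CRNDE (ENSG00000245694.10, chr16:54845189-54929189, minus strand) is raised in colorectal and other tumours. It had few counts, 104 to 132 per Control library, 85 to 103 with CTCFL-OE and 35 to 53 with CTCFL-KD. These gave 5.51, 5.13 and 5.27 CPM for Control, 4.70, 4.55 and 5.22 with CTCFL-OE, then 3.16, 3.15 and 2.36 with CTCFL-KD, so the CTCFL-KD libraries were the lowest. CRNDE fell by 0.88 ± 0.20 on the log2 scale (edgeR, adjusted p = 0.00606). UCA1, NEAT1 and CRNDE passed the test in CTCFL-KD under all 20 alternatives, with log2 fold changes of -2.56 to -2.42, -1.74 to -1.40 and -0.96 to -0.75.

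MALAT1 (ENSG00000251562.8, chr11:65497640-65508073, plus strand) stood at 426, 519 and 353 CPM in Control and at 386, 288 and 383 in CTCFL-KD. The groups overlapped, and its log2 fold change of -0.30 ± 0.28 did not pass (edgeR, adjusted p = 0.428), with an approximate confidence interval from -0.85 to 0.26. PVT1 (ENSG00000249859.12, chr8:127794526-128187101, plus strand) stood at 13.5, 11.6 and 11.9 CPM in Control and at 13.2, 9.63 and 10.95 in CTCFL-KD. Its log2 fold change was -0.14, with an interval from -0.54 to 0.27. LINC-PINT (ENSG00000231721.7, chr7:130791264-131110176, minus strand) had 12 to 18 counts per Control library and 7 to 17 in CTCFL-KD, and its interval ran from -0.49 to 0.76. These intervals took their multiple of the standard error from the normal distribution, which makes them too narrow for so few libraries. The interval of CRNDE, made in the same way, ran from -1.28 to -0.49, and those of MALAT1 and PVT1 overlapped it. A fall as large as that of CRNDE can therefore not be excluded from these intervals.

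The 4 snoRNA hosts did not pass the test in CTCFL-KD, and the differences of SNHG5 and DANCR rested on 1 library. GAS5 (ENSG00000234741.8, chr1:173858559-173868882, minus strand), a growth-arrest RNA, stood at 133, 147 and 119 CPM in Control and at 345, 166 and 178 in CTCFL-KD. All CTCFL-KD libraries lay above all Control libraries, as they did for 28.7% of all genes tested, but replicate 1 alone was 2.01 times the mean of the other 2. The log2 fold change was 0.78 ± 0.29 (edgeR, adjusted p = 0.0508), just outside the threshold, and 0.37 without that library (edgeR, adjusted p = 0.101). GAS5 passed in 8 of the 20 alternatives, among them DESeq2 (adjusted p = 0.0358) and edgeR without CTCFL-KD replicate 2 (adjusted p = 0.0264), with adjusted p from 0.0212 to 0.160 over all of them.

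SNHG5 (ENSG00000203875.13, chr6:85650491-85678932, minus strand) stood at 69.0, 67.9 and 62.8 CPM in Control and at 151, 53.2 and 60.7 in CTCFL-KD. DANCR (ENSG00000226950.8, chr4:52712325-52723623, plus strand), described as an inhibitor of differentiation, stood at 55.3, 56.2 and 54.4 CPM in Control and at 122, 47.6 and 55.3 in CTCFL-KD. In both, CTCFL-KD replicate 1 was high (2.65 and 2.37 times the mean of the other 2) and the other libraries lay below the Control mean or within 1 CPM of it. Their log2 fold changes of 0.41 and 0.44 turned to -0.22 and -0.10 without that library, and neither passed the test with or without it.

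SNHG1 (ENSG00000255717.7, chr11:62851978-62855953, minus strand) stood at 106, 116 and 89.9 CPM in Control and at 115, 83.3 and 68.6 in CTCFL-KD. Its log2 fold change of -0.23 ± 0.26 did not pass (edgeR, adjusted p = 0.505), and it was -0.45 without CTCFL-KD replicate 1. SNHG1 in that library was 1.51 times the mean of the other 2. Among 23 other snoRNA host lncRNAs tested, 20 were higher in CTCFL-KD replicate 1 than in the mean of the other 2 replicates, with a median log2 ratio of 1.03, against 0.06 over the lncRNA genes and -0.03 over all genes tested. A fit that removed the trend from each library gave SNHG5 and DANCR log2 fold changes of 0.63 and 0.62.

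The annotation used here places SNORD22, SNORD25, SNORD26, SNORD27, SNORD28 and SNORD30 inside SNHG1, SNORD50B inside SNHG5 and SNORA26 inside DANCR. All were listed at 0 counts in all 9 libraries. How reads that fall on both a host and its snoRNA were assigned is not given in the sources used here. GAS5 overlaps ZBTB37 on the opposite strand, DANCR overlaps LINC01618 on the same strand and ERVMER34-1 on the opposite one, and MALAT1 overlaps TALAM1 on the opposite strand, so reads may be shared between these genes.

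**Figure D2:**
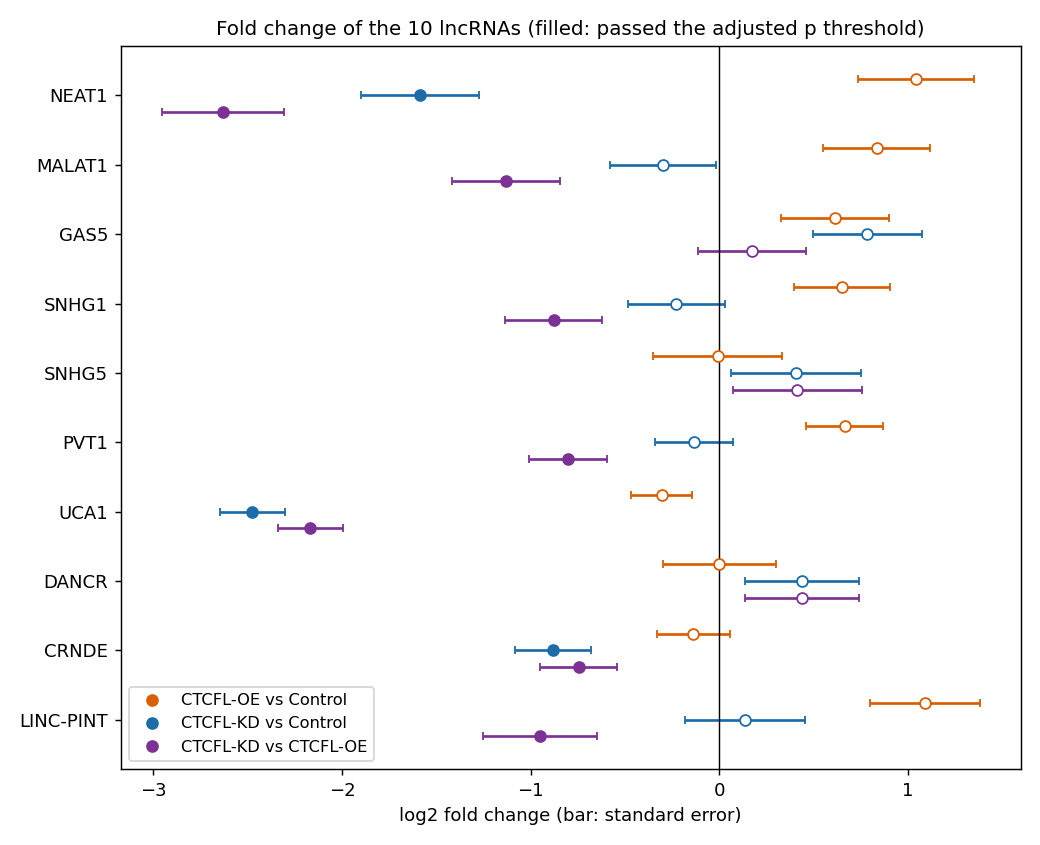
Log2 fold change (x axis) with its standard error for each of the 10 lncRNAs in CTCFL-OE vs Control, CTCFL-KD vs Control and CTCFL-KD vs CTCFL-OE, with filled points for those past the adjusted p threshold. No point of CTCFL-OE vs Control is filled, 3 of CTCFL-KD vs Control are, and 7 of CTCFL-KD vs CTCFL-OE are, all of them to the left of 0.

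CTCFL-OE was compared with the same Control libraries. None of the 10 lncRNAs passed the test at an adjusted p under 0.1 (edgeR's quasi-likelihood test, Benjamini-Hochberg adjustment), where 3.15% of all genes tested did (1.99% higher, 1.16% lower) and 2.07% were DEGs (1.37% higher, 0.702% lower). At an unadjusted p under 0.05, 5 of the 10 were counted (NEAT1, MALAT1, SNHG1, PVT1 and LINC-PINT, all with a higher level in CTCFL-OE), as were 3157 of the 17794 genes tested. DESeq2 on all 9 libraries called 3 of the 10 (NEAT1, MALAT1 and PVT1) and 1373 genes in all, against 561 by edgeR. The median log2 fold change of the 10 was 0.63, against -0.01 over all genes tested and 0.24 over the lncRNA genes tested.

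The nuclear RNAs NEAT1 and MALAT1 had log2 fold changes of 1.04 ± 0.31 and 0.83 ± 0.28 (edgeR, adjusted p = 0.128 and 0.170). MALAT1 stood at 469, 868 and 980 CPM in CTCFL-OE, of which the first lay inside the Control range. LINC-PINT stood at 0.60, 0.70 and 0.86 CPM in Control and at 1.23, 1.57 and 1.84 in CTCFL-OE, from 12, 18 and 17 and from 27, 30 and 30 counts. Its groups did not overlap, and its log2 fold change of 1.09 ± 0.29 lay next to the threshold (edgeR, adjusted p = 0.101). PVT1 stood at 14.7, 22.8 and 21.2 CPM in CTCFL-OE, all above the Control libraries, with a log2 fold change of 0.67 ± 0.20 (edgeR, adjusted p = 0.139).

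Among the snoRNA hosts, GAS5 stood at 155, 231 and 224 CPM and SNHG1 at 111, 181 and 197 CPM in CTCFL-OE. Their log2 fold changes were 0.61 ± 0.29 and 0.65 ± 0.26 (edgeR, adjusted p = 0.294 and 0.223). SNHG5 at 79.5, 63.3 and 55.7 CPM and DANCR at 59.7, 54.8 and 51.3 CPM straddled their Control levels. The approximate confidence intervals of their log2 fold changes ran from -0.68 to 0.66 and from -0.59 to 0.59. GAS5, PVT1 and LINC-PINT lay above Control in all 3 libraries, as did 16.3% of all genes tested, and UCA1 lay below in all 3, as did 20.8% (37.1% in either direction).

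The levels of NEAT1, MALAT1 and SNHG1 were high in CTCFL-OE replicates 2 and 3 only. Replicate 1 stood at 0.443 times the mean of the other 2 for NEAT1, 0.508 times for MALAT1 and 0.587 times for SNHG1, and 8 of the 10 lncRNAs were lower in it than in that mean, as were 17 of 23 other snoRNA hosts, 1389 of 2145 lncRNA genes and 8991 of 17794 genes tested. Replicates 2 and 3 also had the larger shares of mitochondrial counts (12.4 and 14.9% against 7.40%), whose part in these values was not tested. Without CTCFL-OE replicate 1, 5 of the 10 lncRNAs passed the test, as did 2780 of 18354 genes: NEAT1 (log2 fold change 1.33), LINC-PINT (1.23), MALAT1 (1.09), SNHG1 (0.86) and PVT1 (0.83). Without CTCFL-KD replicate 1, a library of neither group compared here, 7 passed, as did 5040 of 18393 genes, and these were the same 5 with GAS5 (0.61) and UCA1 (-0.31). Whether these lncRNAs passed thus depended on the libraries and the tool used. Leaving out any other library called none of the 10.

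**Figure D3:**
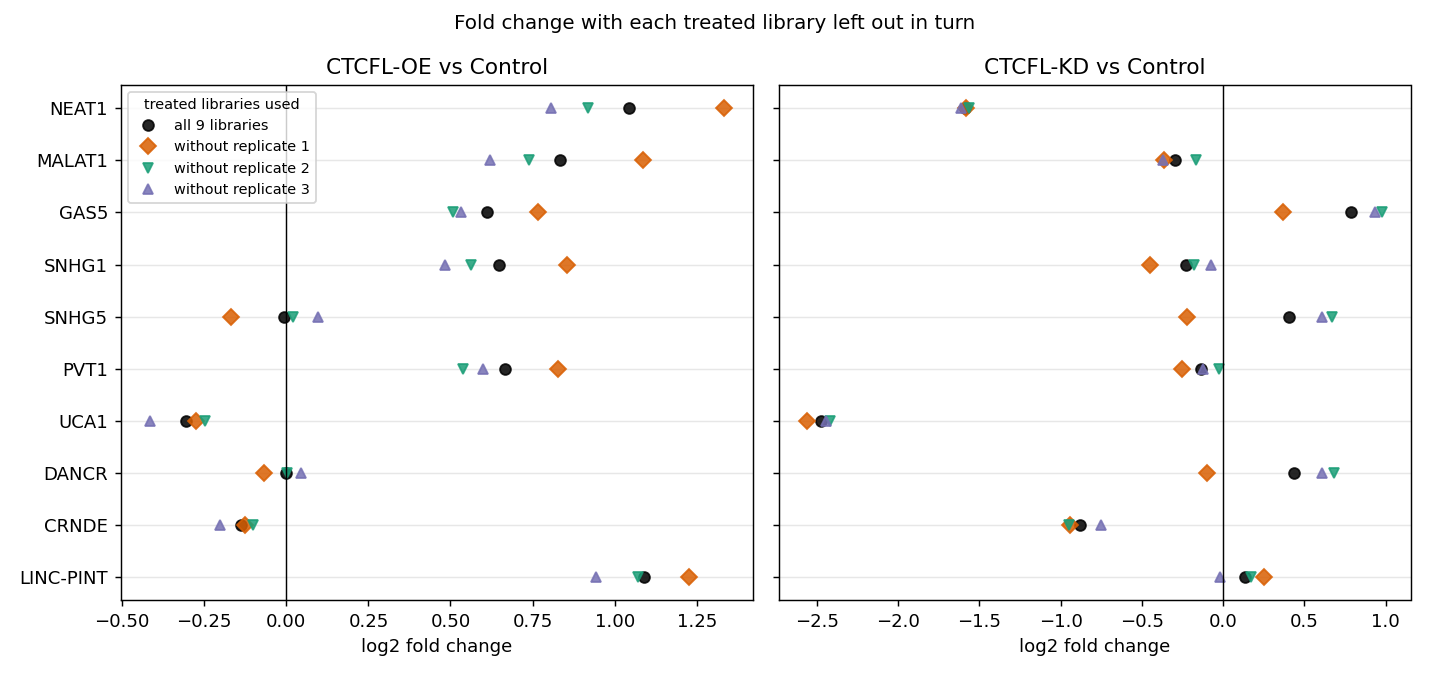
Log2 fold change against Control (x axis) of each lncRNA with all 9 libraries and with each replicate of the treated group left out, for CTCFL-OE on the left and CTCFL-KD on the right. Leaving out CTCFL-KD replicate 1 moves GAS5 from 0.78 to 0.37 and turns SNHG5 and DANCR below 0, and leaving out CTCFL-OE replicate 1 moves NEAT1 from 1.04 to 1.33.

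Because both comparisons share the Control libraries, CTCFL-KD was also tested against CTCFL-OE directly. Here 7 of the 10 lncRNAs were lower in CTCFL-KD and 0 were higher at an adjusted p under 0.05 (edgeR's quasi-likelihood test, Benjamini-Hochberg adjustment), where 26.8% of all genes tested were called, 11.5% lower and 15.3% higher. NEAT1 differed most, with a log2 fold change of -2.63 ± 0.32 (edgeR, adjusted p = 0.000234), followed by UCA1 with -2.17 ± 0.17 (edgeR, adjusted p = 2.15e-05) and MALAT1 with -1.13 ± 0.29 (edgeR, adjusted p = 0.0144). These 3 were DEGs, as were 17.0% of all genes tested (6.42% lower, 10.6% higher). LINC-PINT (-0.95), SNHG1 (-0.88), PVT1 (-0.80) and CRNDE (-0.74) also passed, with adjusted p of 0.0377, 0.0280, 0.0161 and 0.0204 by edgeR. For 6 of the 10 the libraries did not overlap and all CTCFL-KD libraries were the lower ones, as for 19.5% of all genes tested (20.3% above, 39.8% in either direction). The median log2 fold change was -0.84, against 0.04 over all genes tested and -0.04 over the lncRNA genes.

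GAS5 (0.17), SNHG5 (0.41) and DANCR (0.44) did not pass in this comparison, and their log2 fold changes were -0.24, -0.22 and -0.10 without CTCFL-KD replicate 1. NEAT1 and UCA1 passed under all 20 alternatives. The count of 7 fell to 2 (NEAT1 and UCA1) with edgeR on these 2 groups alone, where 2668 of 17172 genes were called. With the length trend removed the count was 5, PVT1 and CRNDE being lost. With the replicate block as well it was 4, LINC-PINT being lost too. In these 2 fits, 5604 and 5268 of 17794 genes were called. The count fell to 3 without CTCFL-OE replicate 2 (NEAT1, CRNDE and UCA1), and to 4 without CTCFL-OE replicate 3 or CTCFL-KD replicate 3 (PVT1, NEAT1, MALAT1 and UCA1 in both cases). Over all genes, 4771 of 17794 were called with all libraries, and 3181 of 18341, 4230 of 18429 and 4380 of 18316 without these 3 libraries in the same order. LINC-PINT passed in 7 of its 19 alternatives.

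The genes beside the lncRNAs were examined because several lncRNAs are known to act on, or share regulation with, their neighbours. The nearest protein-coding gene on each side and any that overlapped were taken, and 17 different tested genes are described. In CTCFL-KD, 7 of the 17 were lower and 2 higher (edgeR, adjusted p under 0.05), against 16.8% lower and 21.4% higher over all genes tested. In CTCFL-OE none of the 17 passed (edgeR, 3 at an unadjusted p under 0.05), where 3.15% of all genes did. Without CTCFL-KD replicate 1, 7 were lower and 3 higher in CTCFL-KD, ZBTB37 being the added call, beside 4330 lower and 4640 higher of 17794 genes. Without CTCFL-OE replicate 1, SLC3A2 alone passed in CTCFL-OE, where 1727 of 17787 genes were higher and 992 lower. Both flanking genes of UCA1 and both of CRNDE fell in CTCFL-KD together with the lncRNA.

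Beside UCA1, the olfactory receptor gene OR10H1 (12542 bases away) had 14 to 24 counts per Control library and 0 to 2 in CTCFL-KD. The fatty acid hydroxylase gene CYP4F2 (41695 bases away) had 7 to 11 counts per Control library and none in CTCFL-KD. OR10H1 and CYP4F2 both passed the test (edgeR, adjusted p = 0.0018 and 0.00125). A library at 0 could still hold 3 counts. With every CTCFL-KD library set at 3 counts, OR10H1 was 4.45-fold and CYP4F2 2.17-fold lower than the Control mean. For OR10H1 this is not a limit, since a library with 2 counts could hold more than 3. Beside CRNDE, the homeobox gene IRX5 lies 1676 bases away on the opposite strand and had 10 to 17 counts in Control and 0 to 2 in CTCFL-KD (edgeR, adjusted p = 0.00421). Set at 3 counts in the same way, which is again not a limit, IRX5 was 3.10-fold lower. IRX3, a homeobox gene of the same cluster 558402 bases away, stood at 7.01, 4.74 and 5.98 CPM in Control and at 0.27, 0.54 and 0.49 in CTCFL-KD. It fell by 3.69 ± 0.34 on the log2 scale (edgeR, adjusted p = 2.69e-05), against 0.88 for CRNDE.

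FRMD8, 9249 bases from NEAT1, had a log2 fold change of -0.16 ± 0.17 in CTCFL-KD (edgeR, adjusted p = 0.486), beside -1.59 for NEAT1. MYC, 51575 bases from PVT1, averaged 31.7 ± 1.93 CPM for Control, 39.6 ± 3.89 with CTCFL-OE and 28.5 ± 7.49 with CTCFL-KD (SD, n = 3), and its log2 fold changes of 0.32 and -0.15 did not pass (edgeR, adjusted p = 0.431 and 0.589). The latter was 0.039 without CTCFL-KD replicate 1 (edgeR, adjusted p = 0.819). SLC3A2, the heavy chain of amino acid transporters, lies 51 bases from SNHG1 on the opposite strand. It gave 0.89 ± 0.35 on the log2 scale with CTCFL-OE and 0.72 ± 0.34 with CTCFL-KD (edgeR, adjusted p = 0.218 and 0.119), beside 0.65 and -0.23 for SNHG1. SLC3A2 stood at 217, 504 and 626 CPM in CTCFL-OE against 238 to 247 in Control, so replicate 1 lay below Control and the other 2 above it. Without CTCFL-OE replicate 1 it gave 1.21 (edgeR, adjusted p = 0.0312).

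Of the other neighbours, CENPL beside GAS5 fell by 0.70 in CTCFL-KD on the log2 scale, SYNCRIP beside SNHG5 by 0.70 and USP46 beside DANCR by 0.96. ERVMER34-1, which overlaps DANCR, rose by 1.04 and GSDMC, 1561095 bases from PVT1, by 2.12. WDR74 beside SNHG1, ZBTB37 at GAS5, MKLN1 and PODXL at LINC-PINT and RASL11B beside DANCR did not pass the test in CTCFL-KD, with log2 fold changes of 0.22, 0.58, -0.58, -0.22 and -1.71. These were -0.22, 0.93, -0.26, -0.0017 and -1.31 without CTCFL-KD replicate 1, of which ZBTB37 then passed (edgeR, adjusted p = 0.000266). ZBTB37 stood at 7.85 CPM in that library and at 23.2 and 23.0 in the other 2, against 10.97 to 13.3 in Control.

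**Figure D4:**
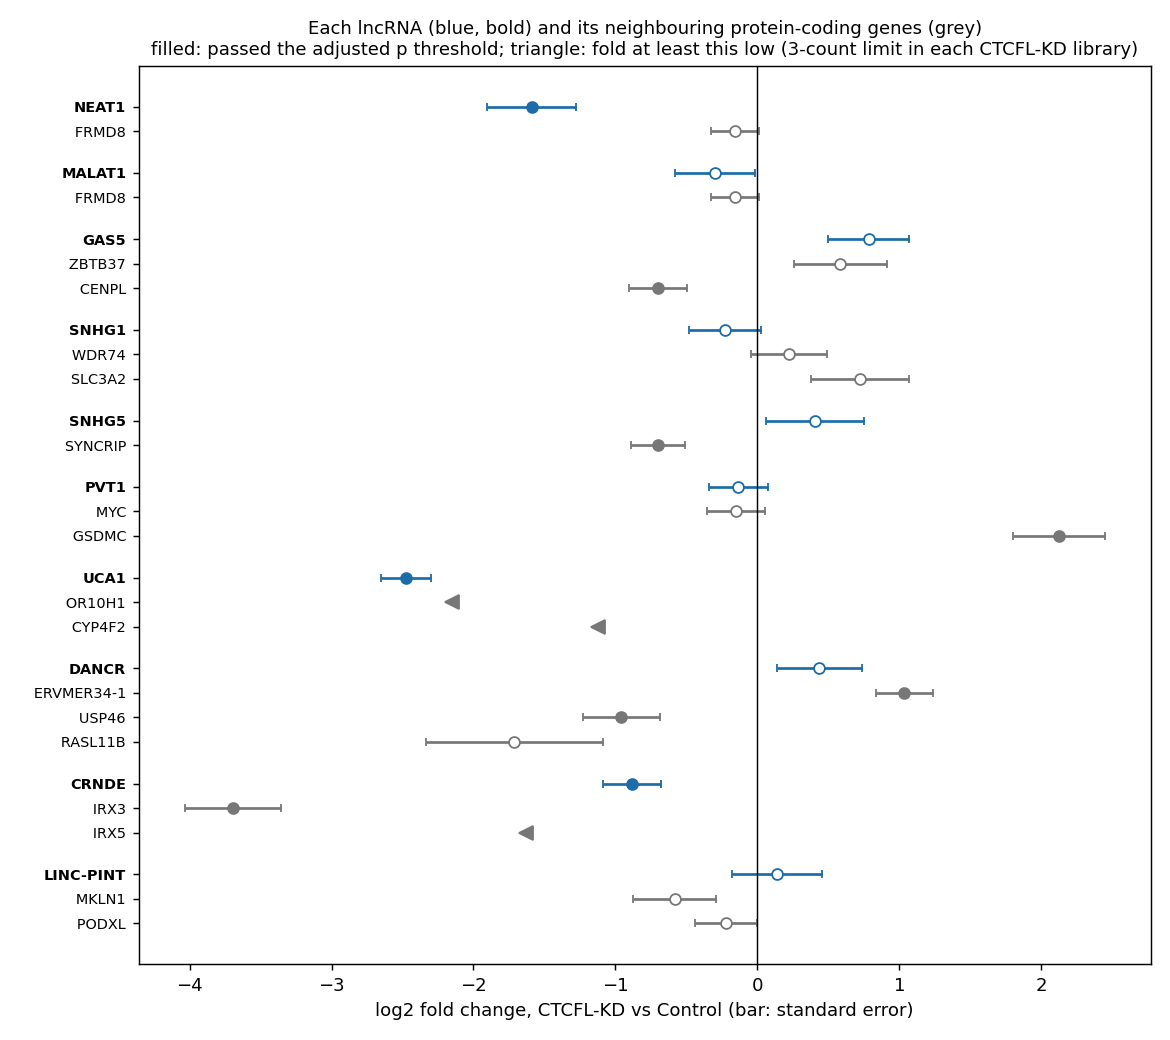
Log2 fold change in CTCFL-KD vs Control (x axis) with its standard error for each lncRNA (blue) and its neighbouring protein-coding genes (grey), with filled points for those past the adjusted p threshold. Triangles mark OR10H1, CYP4F2 and IRX5, which were under 3 counts in every CTCFL-KD library and are drawn at the fold that 3 counts in each would give. All the flanks of UCA1 and CRNDE lie left of 0.

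The wider surroundings were counted after these neighbours had been seen. Within 1 Mb on either side of CRNDE, 3 of 5 tested genes fell in CTCFL-KD (IRX3, IRX5 and the matrix metalloproteinase gene MMP2) and none rose. Within 1 Mb of UCA1, 12 of 41 fell, among them CYP4F3, CYP4F11 and the tropomyosin gene TPM4, and 5 rose. Within 1 Mb of NEAT1, 11 of 79 fell and 16 rose. Over all genes tested, 16.8% fell and 21.4% rose. Without CTCFL-KD replicate 1, the windows of CRNDE, UCA1 and NEAT1 held 3, 14 and 29 genes that fell and 0, 6 and 16 that rose, beside 4330 and 4640 of 17794 genes. Genes of one region are not independent of each other, and no test was made of these counts.

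Related RNAs and proteins were counted from lists made by known role. The lists were chosen with earlier results of these data known, so their shares are descriptions only. Beside their counts in CTCFL-KD stand 21.4% of all genes tested that rose and 16.8% that fell, with a median log2 fold change of 0.08. Without CTCFL-KD replicate 1, 4640 of 17794 genes rose and 4330 fell. In CTCFL-OE, 1.99% rose and 1.16% fell, and without CTCFL-OE replicate 1, 1727 of 17787 rose and 992 fell. Of 23 other snoRNA host lncRNAs tested, 3 rose in CTCFL-KD (SNHG20 by 1.22, SNHG7 by 1.01 on the log2 scale, and SNHG11) and SNHG4 fell by 1.01, with a median of 0.46, and 5 fell and 3 rose without CTCFL-KD replicate 1, with a median of 0.20. SNHG4 rose by 0.91 in CTCFL-OE (edgeR, adjusted p = 0.0777), the only call among the 23, and 4 rose and 0 fell without CTCFL-OE replicate 1. Of 31 other cancer-linked lncRNAs tested, 5 rose (16.1%) and 7 fell (22.6%) in CTCFL-KD, shares near those of all genes, and 7 rose and 9 fell without CTCFL-KD replicate 1. In CTCFL-OE, 0 rose and 4 fell, and without CTCFL-OE replicate 1, 3 rose and 4 fell. H19, the imprinted lncRNA beside IGF2, rose by 3.09 in CTCFL-KD and fell by 2.54 in CTCFL-OE. MIR22HG, a microRNA host, fell by 1.35 in CTCFL-KD and CYTOR fell by 0.85.

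Of 25 genes for paraspeckle proteins, the partners of NEAT1, 15 fell (60.0%) and 1 rose in CTCFL-KD, where 16.8% of all genes tested fell, with a median log2 fold change of -0.50 against 0.08 over all genes. RBM3, a cold-inducible RNA-binding protein, fell by 1.31, NUDT21, a subunit of the cleavage factor that chooses polyadenylation sites, by 1.20, HNRNPR by 0.92 and HNRNPF by 0.84. Without CTCFL-KD replicate 1, 20 fell and 1 rose, where 4330 of 17794 genes fell and 4640 rose. With the replicate block 12 fell and 0 rose, beside 2913 and 3654 of all genes, and with the length trend removed 13 fell and 1 rose, beside 3594 and 3956. None passed in CTCFL-OE, where the median was -0.15 and 1 had an unadjusted p under 0.05. Of 9 genes for nuclear speckle proteins, the surroundings of MALAT1, 3 fell in CTCFL-KD (SRSF1 by 0.95, SF3B1 by 0.73 and U2AF2 by 0.53) and none rose, 4 fell without CTCFL-KD replicate 1, and 5 fell with the length trend removed. None of them passed in CTCFL-OE (edgeR, 2 at an unadjusted p under 0.05). Without CTCFL-OE replicate 1, 1 rose and 1 fell in CTCFL-OE in each of these 2 lists.

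Of 16 genes for nonsense-mediated decay factors, UPF2 alone fell in CTCFL-KD, by 0.79, and 5 fell and 1 rose without CTCFL-KD replicate 1, a fit in which the calls over all genes went from 38.2% to 50.4%. None passed in CTCFL-OE (1 at an unadjusted p under 0.05). Of 20 p53 target genes, 5 fell and 1 rose in CTCFL-KD, with a median of 0.01, and 6 fell and 3 rose without CTCFL-KD replicate 1. In CTCFL-OE 1 fell, and 5 fell without CTCFL-OE replicate 1. In CTCFL-KD, the kinase gene PLK3 fell by 1.53, the death receptor gene FAS by 1.42 and PHLDA3 by 0.73, and SESN2 rose by 0.87. LINC-PINT itself did not pass in either comparison with Control.

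For each lncRNA, the genes whose log2 CPM over the 9 libraries was most alike were found among 11622 genes with a mean of at least 5 CPM. These values describe 9 points that share 3 groups and a common scaling, and carry no test. UCA1 was closest to IL18 (Pearson r = 0.997), EHD2 (0.997) and KRT5 (0.994), and NEAT1 to ZDHHC11 (0.996), MLLT6 (0.988) and MROH1 (0.987). CRNDE was closest to HNRNPDL (0.987) and SNHG1 to the lncRNA HOTAIRM1 (0.983). TMEM256 was among the 3 closest genes of both SNHG5 (0.988) and DANCR (0.993), the pair that was high in CTCFL-KD replicate 1. MALAT1 was closest to MSLNL (0.963), GAS5 to CDK10 (0.983), PVT1 to FAM156A (0.970) and LINC-PINT, with its low counts, to ATP2B2 (0.934).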

How the data were processed

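RNA of 9 OVCAR3 libraries (Control, CTCFL-OE and CTCFL-KD, 3 biological replicates each) had been sequenced from a stranded mRNA kit. The deposited values are raw counts per gene, which the authors made with featureCounts on GRCh38. The methods name STAR for the alignment, whereas the submitters' processing notes list Trimmomatic, kallisto and featureCounts. Which annotation was counted, whether by strand, and how reads mapping to several places were handled is not given in the sources used here. The library files equalled their columns of the matrix in all 9 cases. GENCODE 44 named 60419 of 60660 genes, with gene versions that differ in part from those of the files.

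Counts were fitted with edgeR 4.0.16 in R 4.3.3 (filterByExpr, TMM scaling, robust quasi-likelihood fit over the 9 libraries, condition being its sole factor), with Benjamini-Hochberg adjustment over 17794 genes. A gene was called at an adjusted p under 0.1 in CTCFL-OE vs Control and under 0.05 in the other 2 comparisons, and was a DEG if the log2 fold change was also beyond 1. Standard errors were derived from the quasi-likelihood F. A count of 0 allows up to 3 counts, or 0.117 to 0.271 CPM in these libraries, and such limits cover counting error only. Tables used Python 3.11.15, pandas 2.3.3 and numpy 2.4.6, and figures matplotlib 3.10.9. The fit was also run on counts simulated from its own fitted values, which held no outlying library, length trend or pairing. Such a run says nothing of those features, and its outcome is not given here. Alternatives were DESeq2 1.42.0, RLE scaling, upper-quartile scaling, edgeR on the 2 groups compared, no mitochondrial genes, no filter, a minimum of 10 counts per library, no robust estimation, a replicate block, removal of the length trend, both of these together, and each library left out. The neighbourhoods of 1 Mb, and the lists and neighbours without replicate 1, were added after seeing the data.

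The 10 lncRNAs and the gene lists were chosen with earlier results of these data known. Text names all members, their neighbours, CTCFL, the 3 most similar genes or fewer, and per list up to 4 genes past the test with the largest change and a mean of at least 5 CPM. CCAT1 and LINC00473 were not matched in the matrix. Some neighbouring genes are not reported here. Genes of the windows of 1 Mb were named after their values were seen. To check pairing, departures from the group mean were correlated between Control and CTCFL-KD libraries of equal number over 11622 genes, and gave 0.384, 0.221 and 0.265. All were over 0.1, so the numbers were read as pairing these libraries, although no source names a shared batch. With the length trend removed they were 0.271, 0.162 and 0.222. Among unequal numbers, Control 3 with CTCFL-KD 2 gave 0.1545 and the others -0.382 to 0.085, so values over 0.1 were not confined to equal numbers. For CTCFL-OE the values of equal number were -0.045, 0.225 and -0.050, and Control 3 with CTCFL-OE 1 gave 0.1585.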

Additional observations from a re-analysis of the deposited data

How the results depend on the processing

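The calls of UCA1, NEAT1 and CRNDE in CTCFL-KD vs Control, and of UCA1 and NEAT1 in CTCFL-KD vs CTCFL-OE, held under all 20 alternatives. The count of 3 in CTCFL-KD vs Control became 4, with GAS5 added, in 8 of the 20, namely DESeq2, upper-quartile scaling, mitochondrial genes left out, no low-count filter, robust estimation off, the length trend removed, and CTCFL-KD replicate 2 or 3 left out. Over all genes, 6800 of 17794 were called by the main fit, 7547 with DESeq2, 8018 of 37834 with no low-count filter and 7550 with the length trend removed. The rest of these 8 gave 6318 to 6896. The count of 0 lncRNAs called in CTCFL-OE vs Control did not hold. It became 3 with DESeq2, 6 with edgeR on the 2 groups compared, 2 with no low-count filter and 1 (LINC-PINT) with RLE scaling, upper-quartile scaling, mitochondrial genes left out, robust estimation off or the length trend removed, and ranged from 0 to 7 when each library was left out. Calls over all genes rose from 561 of 17794 to 1373 with DESeq2, 3450 of 17104 with edgeR on the 2 groups compared and 1517 of 37834 with no low-count filter. The count of DEGs there was 1 under the same alternatives, 2 with edgeR on the 2 groups compared, and 0 to 3 with libraries left out. In CTCFL-KD vs CTCFL-OE, the count of 7 became 2 with edgeR on the 2 groups compared, 4 with the replicate block and the length trend removed, and 3 to 7 with libraries left out, while calls over all genes went from 4771 to 2668 and 5268 in the first and second of these, and its 3 DEGs ranged from 2 to 5. The cause was not tested. The replicate block ties libraries of equal number in all 3 groups, CTCFL-OE included, although its correlations with Control by number were not all positive. With the block, NEAT1 in CTCFL-KD vs Control had a log2 fold change of -1.57 (edgeR, adjusted p = 0.00308), UCA1 -2.48 and CRNDE -0.88. The count stayed at 3 in CTCFL-KD vs Control, 0 in CTCFL-OE vs Control and 7 in CTCFL-KD vs CTCFL-OE. The block changed no call of the 10 lncRNAs, and with it 4 of the other snoRNA hosts rose and 2 fell, against 3 and 1. Signs turned only for log2 fold changes that passed no test. PVT1 in CTCFL-KD reached 0.0010 with the length trend removed, and LINC-PINT ranged from -0.021 to 0.26 with libraries left out. With libraries left out, CTCFL-KD vs Control ranged from -0.22 to 0.67 for SNHG5 and from -0.10 to 0.68 for DANCR, and CTCFL-KD vs CTCFL-OE from -0.24 to 0.33 for GAS5, -0.22 to 0.65 for SNHG5 and -0.10 to 0.65 for DANCR, the lowest values being those without CTCFL-KD replicate 1. In CTCFL-OE vs Control, SNHG5 was 0.031, 0.0031, 0.045, 0.011 and 0.0065, and DANCR 0.040, 0.011, 0.053, 0.020 and 0.016, with 2-group edgeR, RLE, upper-quartile scaling, at least 10 counts and the length trend removed, and DANCR was 0.0087 without mitochondrial genes. With libraries left out, they ranged from -0.17 to 0.096 and from -0.067 to 0.044. LINC-PINT, with at most 30 counts per library, could not be fitted with the minimum of 10 counts.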
